A study of Homo sapiens with 12 samples.

Results

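The genes described here are 56 genes of the step from G1 into S phase and of DNA replication, from the cyclins and E2F factors that open S phase to the enzymes that copy and package DNA. They were chosen by name, as genes whose symbol stands in the probe table of the array, and the brightest probe set that names only that gene was used. All 56 were measured, among 10346 genes with such a probe set. RNA levels were read on Affymetrix arrays in the glioblastoma line U251, an established human cell line, after transfection of small interfering RNA (siRNA) with DharmaFECT 2. The 4 groups of 3 arrays were control siRNA, which matches no known human transcript, ETV6 siRNA, NFKB1 siRNA, and both siRNAs in the same cells (double siRNA). Each siRNA was an ON-TARGETplus SMARTpool given at 50 nM. The labels do not say whether control siRNA made up the difference in total siRNA between single and double transfections or how long after transfection the cells were harvested. They also name no culture for an array, so the p-values here cover the spread among these arrays, which may be technical. The ETV6 protein is a repressor of transcription with an ETS domain, and NFKB1 makes the precursor of an NF-kB subunit. The design asks what each loss does alone and what both do together.

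Cyclin D with CDK4 or CDK6, and then cyclin E with CDK2, phosphorylate the retinoblastoma protein and its relatives, which frees E2F factors to switch on the genes of S phase. Before that, the origin recognition complex, CDC6 and CDT1 load the MCM2-7 helicase onto DNA (licensing). CDC45, the GINS complex and MCM10 then turn the loaded helicase on, and the clamp PCNA, its loader RFC and the DNA polymerases copy the strands. Most of these genes are known E2F targets, and as a set they are used as a sign of proliferation in tumours such as glioblastoma. In RNA from a whole culture, fewer cells in S phase and less of the RNA per cell cannot be told apart.

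RefSeq promoter windows, which run from 250 bases before to 50 after the gene start on assembly GRCh38.p14, were found for 47 of the 56 genes. They were searched on both strands for 4 E2F letter strings, TTTGGCGC, TTTCGCGC, TTTCCCGC and TTTGCCGC. At least 1 of these stood in 22 of the 47 windows (46.8%), beside 3.31% of 35116 windows of the same length. The letters TTTGAA of the cell cycle homology element, searched in the same way, stood in 2 of 47 windows (4.26%), beside 15.2% of all windows. The members' windows were also richer in G and C, with a median of 67.3% against 58.7%. The E2F letters hold mostly G and C, whereas TTTGAA holds mostly A and T. A stretch of 120 bases upstream of the start is shown for 6 genes, picked among those that hold E2F letters before the start. HELLS, RFC3, MCM6 and PCNA were lower with each single siRNA, while CDT1 and GINS2 were lower with double siRNA, as described further on. Genes with such changes but none of the letters, such as MCM10 and PRIM1 or POLD2 and TK1, are not shown. Capitals mark the E2F letters as read 5′ to 3′ along the gene or on the other strand, and in MCM6 they mark 2 strings that overlap on opposite strands. Each stretch ends at the base before the start, except that of MCM6, which ends 22 bases short of it.
HELLS: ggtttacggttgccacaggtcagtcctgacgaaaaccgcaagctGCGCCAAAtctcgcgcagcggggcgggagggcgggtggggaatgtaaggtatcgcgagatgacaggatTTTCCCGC
RFC3: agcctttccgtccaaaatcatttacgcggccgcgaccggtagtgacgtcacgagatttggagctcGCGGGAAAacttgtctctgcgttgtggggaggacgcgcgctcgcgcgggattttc
MCM6: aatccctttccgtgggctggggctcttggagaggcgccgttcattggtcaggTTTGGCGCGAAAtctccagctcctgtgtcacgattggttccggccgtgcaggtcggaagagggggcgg
PCNA: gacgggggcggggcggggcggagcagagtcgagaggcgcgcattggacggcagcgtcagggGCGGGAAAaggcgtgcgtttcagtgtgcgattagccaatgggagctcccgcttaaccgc
CDT1: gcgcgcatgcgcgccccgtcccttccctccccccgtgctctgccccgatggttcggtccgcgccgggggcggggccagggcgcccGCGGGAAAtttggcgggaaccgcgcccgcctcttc
GINS2: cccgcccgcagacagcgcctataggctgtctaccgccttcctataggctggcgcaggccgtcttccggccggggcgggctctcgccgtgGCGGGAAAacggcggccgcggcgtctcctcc
The windows lie at chr10:94545668-94545787, plus strand (HELLS), chr13:33818029-33818148, plus strand (RFC3), chr2:135876466-135876585, minus strand (MCM6), chr20:5126623-5126742, minus strand (PCNA), chr16:88803669-88803788, plus strand (CDT1) and chr16:85688955-85689074, minus strand (GINS2). A match of letters is a description and not a binding site. Genes of both kinds carry them: the letters begin 76 and 8 bases before the start in HELLS, 55 in RFC3, 90 and 86 in the stretch of MCM6, 59 in PCNA, 35 in CDT1 and 31 in GINS2.

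The arrays were compared before the genes. ETV6 stood at 22.6% of its control level with ETV6 siRNA and 35.1% with double siRNA. NFKB1 stood at 60.3% with NFKB1 siRNA and 58.8% with double siRNA, but on a dim probe set. Its mean was 7.32 in controls, 7.81 with ETV6 siRNA, 6.59 with NFKB1 siRNA and 6.55 with double siRNA. The limit for testing was 7.54, and NFKB1 was kept as a target. With ETV6 siRNA NFKB1 stood at 141% of control, all 3 arrays above the controls, which was not called (0.5 ± 0.18, SE, adjusted p = 0.104) but was in 5 alternative settings. Without NFKB1 replicate 3 the change of NFKB1 in its own knock-down was -0.46 on the log2 scale in place of -0.73. Of 10 astrocyte and glioma markers 9 were measured and all 9 were tested, with GFAP at a mean of 13.28, while of 12 markers of other cell types 1 was measured (MBP, 6.96) and none passed the filter on low levels. The double siRNA arrays stood apart from all others: their poly-A spike-ins averaged 7.97 to 8.05 against 8.37 to 9.35 elsewhere, their ACTB probe sets differed more between the 3' and 5' ends (2.05 to 2.16 against 1.52 to 1.91), and their medians lay at 8.34 to 8.38 against 8.08 to 8.27. Control replicate 3 correlated no better with the other control arrays (at most 0.9838) than with another group (0.9844). In it 37 of the 52 tested replication genes were lower than the mean of the other control arrays, a count not made over all genes. Its median from the control mean was -0.06 over the members and -0.02 over all tested genes. Against the other controls it was lowest in E2F1 (-0.49), POLD2 (-0.36) and CDT1 (-0.34), which fell with double siRNA. It was highest in CDK6 (0.77), POLA1 (0.23) and CCNE2 (0.23), which rose. E2F3, which also rose, was at -0.1, and RPA3, which fell, at 0.07. Its ACTB difference, 1.91, was the widest outside double siRNA. The part of these differences in the results was not tested. Shifting every array to the same median moved the median change of all genes by -0.11 for double siRNA against control, -0.12 for double against ETV6 siRNA, -0.2 for double against NFKB1 siRNA and -0.21 for the interaction. Changes below are as deposited, so a change is to be read against the median of all genes given with it.

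With ETV6 siRNA the replication genes moved mainly down and by little. A gene is called here when its adjusted p in limma, a linear model fitted over all genes and arrays, is under 0.05. Of the 52 members bright enough to test, 20 fell and 1 rose, E2F3, where 6.28% and 4.38% of all 7760 tested genes were called lower and higher (10.7% called in all). The median member change was -0.18 on the log2 scale, beside 0 over all genes, and 2 members fell by over 1.5-fold, HELLS and CCND1. The 3 ETV6 siRNA arrays lay all below the 3 control arrays for 28 of the 52 members, beside 12.7% of all genes, and all above for 1, beside 11.8%. E2F3 was no longer called without any 1 of control replicates 2 and 3 or ETV6 replicates 1, 2 and 3, which left 0 members called higher.

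With NFKB1 siRNA 24 of 52 members fell and 3 rose, where 25.1% of all genes were called lower and 15.5% higher (40.6% in all). CDK6, HELLS, POLA1, MCM10, RFC3, CCNE2 and RRM1 were the 7 that fell by over 1.5-fold, and CCNE1, TK1 and MCM7 were those that rose. The median member change was -0.08, beside 0.01 over all genes. The counts depend on scaling, and all genes moved with the members. After shifting arrays to a common median the member median was 0.01, beside 0.1 over all genes. Then 8 members were called higher and 15 lower, beside 31.3% and 19% of all genes. Of the member calls 34.8% were higher in place of 11.1%. With quantile normalization the median was -0.04 over the members and 0.07 over all genes. The split was 6 to 19 (24% higher), and 28.2% of all genes were called higher. The falls of CCND1, E2F3, MCM3, POLE2 and FEN1 were no longer called with either of these scalings. Those of GMNN, RPA1, TYMS and UHRF1 were no longer called after the median shift. The count of members called higher was 6 without control replicate 1, and 1 without control replicate 2, NFKB1 replicate 1, NFKB1 replicate 2 or double replicate 3.

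With double siRNA 34 of 52 members fell and 5 rose. The background was high in this comparison: 49% of all genes were called lower and 31.9% higher. The share of members called, 75%, was below that of all genes, 80.9%, while the share called lower, 65.4%, was above the 49% of all genes. The median member change was -0.33 and that of all genes was -0.13. CCND1, CDT1, MCM5, CHAF1B and MCM2 were the lowest, and CDK6, CCNE2, POLA1, E2F3 and GMNN were the 5 that rose. In 38 of 52 members every double siRNA array lay below every control array (50.8% of all genes), and in 6 every one lay above (33.5%).

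Compared directly with ETV6 siRNA, double siRNA left 16 members higher and 27 lower, where 34.9% and 51.2% of all genes were called (86.2% in all). Against NFKB1 siRNA 17 members were higher and 29 lower, where 37.7% and 51.4% of all genes were called (89.1% in all). After the shift to a common median the second split was 10 to 33, so that 23.3% of its calls were higher in place of 37%. Of all genes 30.8% were then called higher. The members that stood highest against both were CDK6, HELLS, CCNE2, POLA1, RFC3 and RRM1, at 0.52 to 1.99 on the log2 scale, and CDT1 stood lowest against both, at -1.07 and -1.19. These shares are near the background, so the counts are no result about the replication genes as a set. The single siRNAs differed from each other in fewer members: 6 were higher and 12 lower with ETV6 than with NFKB1 siRNA, where 21.8% and 13.1% of all genes were called (34.9% in all). This split was 6 to 23 after the median shift (20.7% higher in place of 33.3%), with 26.7% of all genes called lower. After quantile normalization the split was 6 to 21 (22.2% higher), with 22.4% of all genes called lower. Without ETV6 replicate 2 it was 3 to 7, and 7 members were called lower without ETV6 replicate 3 and without NFKB1 replicate 2. Its widest members were CDK6 (1 ± 0.18, SE), CCNE1 (-0.6 ± 0.06) and HELLS (0.51 ± 0.13).

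**Figure D1:**
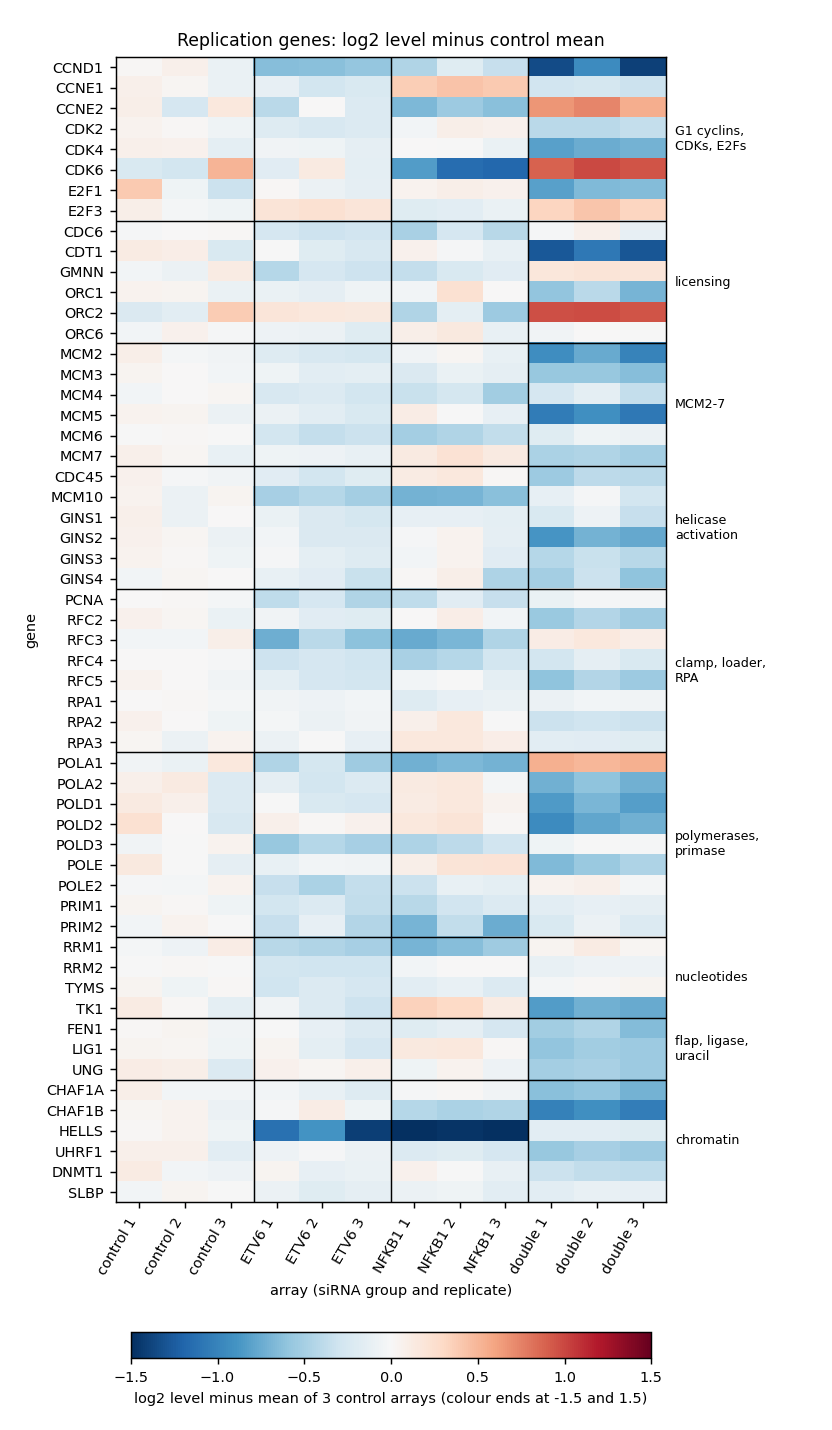
Heat map of the 56 replication genes (rows, in the order of their roles) in the 12 arrays (columns), as log2 level minus the mean of the 3 control arrays, with colours ending at -1.5 and 1.5. The double siRNA columns hold most of the deep blue, in CCND1, CDT1, MCM2, MCM5 and CHAF1B, and the red of CDK6 and ORC2, while HELLS is deep blue in the 6 single siRNA columns.

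Among the 8 G1 cyclins, kinases and E2F factors, ETV6 siRNA lowered 3 and raised 1, NFKB1 siRNA lowered 4 and raised 1, and double siRNA lowered 5 and raised 3. Of all tested genes 6.28%, 25.1% and 49% were called lower and 4.38%, 15.5% and 31.9% higher, so the 62.5% lower and 37.5% higher with double siRNA are near the background. CCND1, cyclin D1, lay at log2 levels of 9.14, 9.19 and 9.02 in the control arrays, 8.48, 8.49 and 8.54 with ETV6 siRNA, 8.67, 8.94 and 8.77 with NFKB1 siRNA, and 7.78, 8.17 and 7.72 with double siRNA. Every knock-down array lay below every control array, and the double siRNA arrays lay lowest. The fall was 1.53-fold with ETV6 siRNA (log2 -0.61 ± 0.11, SE, adjusted p = 0.00479), 1.25-fold with NFKB1 siRNA (-0.32 ± 0.11, adjusted p = 0.033) and 2.34-fold with double siRNA (-1.22 ± 0.11, adjusted p = 2.82e-06). The NFKB1 call ended without control replicate 1 or 2 or NFKB1 replicate 1 or 3, with an adjusted p of up to 0.117. The interaction, which asks whether double siRNA differs from the sum of both single changes, was -0.29 ± 0.15 for CCND1 with an adjusted p of 0.0924.

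CDK6, the other partner of cyclin D beside CDK4, stood at 9.29, 9.24 and 10.03 in control arrays, 9.35, 9.66 and 9.37 with ETV6 siRNA, 8.68, 8.38 and 8.34 with NFKB1 siRNA, and 10.41, 10.51 and 10.46 with double siRNA. Control replicate 3 lay 0.77 above the mean of the other control arrays, yet no NFKB1 or double siRNA array overlapped the controls. CDK6 fell 2.07-fold with NFKB1 siRNA (-1.05 ± 0.18, adjusted p = 0.000913), rose 1.92-fold with double siRNA (0.94 ± 0.18, adjusted p = 0.000468), and stood at -0.06 ± 0.18 with ETV6 siRNA. Without control replicate 3 the changes were -0.8 and 1.2. Double against NFKB1 siRNA gave a 3.98-fold difference, the widest of any member in that comparison.

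CDK4 went the other way from CDK6 with double siRNA. Its levels were 12.32, 12.31 and 12.09 in controls, 12.19, 12.18 and 12.1 with ETV6 siRNA, 12.25, 12.23 and 12.14 with NFKB1 siRNA, and 11.43, 11.5 and 11.53 with double siRNA. The single siRNA arrays overlapped the controls and the double siRNA arrays lay below all others, a fall of 1.69-fold (-0.76 ± 0.07, adjusted p = 2.56e-06).

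The cyclin E genes, whose products activate CDK2, also moved in opposite directions. CCNE1 was at 8.61, 8.56 and 8.43 in controls, 8.41, 8.26 and 8.3 with ETV6 siRNA, 8.9, 8.96 and 8.93 with NFKB1 siRNA, and 8.25, 8.27 and 8.21 with double siRNA. CCNE2 was at 8.87, 8.53 and 8.93 in controls, 8.37, 8.78 and 8.57 with ETV6 siRNA, 8.1, 8.23 and 8.15 with NFKB1 siRNA, and 9.44, 9.51 and 9.32 with double siRNA. NFKB1 siRNA raised CCNE1 1.32-fold (adjusted p = 0.000313) and lowered CCNE2 1.53-fold (adjusted p = 0.00159), whereas double siRNA lowered CCNE1 1.22-fold (adjusted p = 0.000643) and raised CCNE2 1.56-fold (adjusted p = 0.000286). With ETV6 siRNA CCNE1 was called at an adjusted p of 0.0428, with up to 0.204 in other settings, and among single arrays left out the call was kept only without control replicate 3, ETV6 replicate 1 or NFKB1 replicate 3.

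E2F1, an activator E2F, was at 8.96, 8.5 and 8.24 in controls, 8.58, 8.48 and 8.43 with ETV6 siRNA, 8.62, 8.65 and 8.63 with NFKB1 siRNA, and 7.75, 7.9 and 7.92 with double siRNA. The control arrays spread over the range of both single siRNAs, and the double siRNA arrays lay below all of them (-0.71 ± 0.14, adjusted p = 0.000483). E2F3, also an activator, rose with ETV6 siRNA (0.2 ± 0.05, adjusted p = 0.0293) and double siRNA (0.36 ± 0.05, adjusted p = 6.84e-05). Its fall with NFKB1 siRNA (-0.14 ± 0.05, adjusted p = 0.0461) was lost in 17 of the alternative settings, with an adjusted p of up to 0.494; with single arrays left out it was kept only without control replicate 3 or NFKB1 replicate 3. CDK2 fell with ETV6 siRNA (-0.21 ± 0.05, adjusted p = 0.018) and double siRNA (-0.39 ± 0.05, adjusted p = 2.71e-05), and both calls were lost when its 2 probe sets were averaged, the first also without control replicate 2 or ETV6 replicate 2 or 3.

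Licensing genes were 4 tested of 6, of which 2 fell with ETV6 siRNA, 2 with NFKB1 siRNA, and 1 with double siRNA, which also raised 1, beside 6.28%, 25.1% and 49% of all genes called lower. CDC6, which with the origin recognition complex recruits the helicase, and GMNN, geminin, the inhibitor of CDT1, each fell with both single siRNAs. CDC6 lay at 9.18, 9.21 and 9.22 in controls, 8.95, 8.89 and 8.92 with ETV6 siRNA, 8.72, 8.95 and 8.79 with NFKB1 siRNA, and 9.18, 9.28 and 9.08 with double siRNA. All 6 single siRNA arrays were below the controls, and the double siRNA arrays lay on both sides of them. The changes were -0.29 ± 0.07 (adjusted p = 0.0168) and -0.39 ± 0.07 (adjusted p = 0.000899) with ETV6 and NFKB1 siRNA, and -0.03 ± 0.07 (adjusted p = 0.72) with double siRNA. The ETV6 call of CDC6 was lost without ETV6 replicate 2 or 3, with an adjusted p of up to 0.0555. GMNN changed by -0.33, -0.25 and 0.18 (adjusted p = 0.0109, 0.0126 and 0.0298). The single siRNA calls of GMNN ended without ETV6 replicate 1 and without NFKB1 replicate 1. Its double siRNA call ended without any 1 of control replicates 1 and 2 or double replicates 1, 2 and 3. That call was also lost after the shift to a common median and after quantile normalization. Over the alternatives the double siRNA change of GMNN was as low as 0.07, with an adjusted p of up to 0.408.

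CDT1, the loading factor that geminin holds back, changed with double siRNA and was not called with either single siRNA. It stood at 9.63, 9.61 and 9.28 in controls, 9.5, 9.32 and 9.27 with ETV6 siRNA, 9.57, 9.49 and 9.4 with NFKB1 siRNA, and 8.23, 8.43 and 8.22 with double siRNA. Single siRNA arrays overlapped the controls, and the double siRNA arrays lay far below every other array. The fall was 2.32-fold (-1.21 ± 0.1, adjusted p = 2.27e-06), beside -0.14 and -0.02 with ETV6 and NFKB1 siRNA. ORC6, a subunit of the origin recognition complex, was not called in any comparison with control (-0.12, 0.04 and -0.02).

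ORC1 and ORC2, also subunits of that complex, lay under the level needed for testing, as did PRIM2 and GINS4, and are given as levels only. ORC2 was at 7.07, 7.13 and 7.67 in controls, 7.47, 7.45 and 7.44 with ETV6 siRNA, 6.84, 7.14 and 6.75 with NFKB1 siRNA, and 8.26, 8.27 and 8.23 with double siRNA. Its double siRNA arrays were above all others, while those of ORC1 (6.71, 6.89 and 6.6 against 7.35, 7.34 and 7.2 in controls) were below. Of the genes just inside the limit, CHAF1B had a mean of 7.77 and POLE2 one of 7.8, and of those just outside, ORC2 had 7.48 and PRIM2 7.26, where the limit was 7.54.

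The 6 subunits of the MCM2-7 ring, the core of the replicative helicase, are made to work in equal numbers, but their transcripts did not move alike. ETV6 siRNA lowered 2 (MCM2 and MCM6), NFKB1 siRNA lowered 3 (MCM3, MCM4 and MCM6) and raised MCM7, and double siRNA lowered all but MCM6. In percent these are 33.3%, 50% and 83.3% lower, beside 6.28%, 25.1% and 49% of all genes. MCM6 was at 11.39, 11.41 and 11.39 in controls, 11.12, 11.04 and 11.08 with ETV6 siRNA, 10.89, 10.95 and 11.03 with NFKB1 siRNA, and 11.21, 11.33 and 11.31 with double siRNA. All single siRNA arrays of MCM6 lay below the double siRNA arrays, which lay just below the controls. Its changes were -0.32 ± 0.05 (adjusted p = 0.00333), -0.44 ± 0.05 (adjusted p = 7.43e-05) and -0.12 ± 0.05 (adjusted p = 0.0558). The last of these was called in 6 alternative settings, among them the median shift and quantile normalization.

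MCM5 had the opposite order. Its levels were 10.2, 10.18 and 10.05 in controls, 10.05, 9.98 and 9.91 with ETV6 siRNA, 10.25, 10.14 and 10.02 with NFKB1 siRNA, and 9.1, 9.22 and 9.07 with double siRNA. MCM2 stood at 11.23, 11.12 and 11.09 in controls, 10.95, 10.91 and 10.88 with ETV6 siRNA, 11.09, 11.18 and 11.03 with NFKB1 siRNA, and 10.21, 10.39 and 10.15 with double siRNA. In both genes the double siRNA arrays lay below all other arrays, by 2.02-fold from control for MCM5 (-1.01 ± 0.07, adjusted p = 1.16e-06) and 1.86-fold for MCM2 (-0.9 ± 0.07, adjusted p = 1.48e-06). MCM3 fell by 0.59 and MCM7 by 0.48 on the log2 scale with double siRNA (adjusted p = 2.3e-06 and 1.32e-05). MCM4 changed by -0.24, -0.38 and -0.25 with ETV6, NFKB1 and double siRNA, and the first of these was not called (adjusted p = 0.0503). Some of the smaller calls rested on single arrays: MCM2 with ETV6 siRNA (adjusted p = 0.0475), with single arrays left out, was kept only without control replicate 3, NFKB1 replicate 3 or double replicate 2 or 3. MCM7 with NFKB1 siRNA (0.16, adjusted p = 0.0405) was kept only without control replicate 1 or ETV6 replicate 1, and was 0.1 without control replicate 3. MCM3 with NFKB1 siRNA (-0.16, adjusted p = 0.0261) was lost without control replicate 1 or 2 or NFKB1 replicate 1.

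Of the factors that switch the loaded helicase on, 5 of 6 were tested. MCM10 was called with each single siRNA and not with double siRNA, and CDC45 and the 3 tested GINS subunits were called with double siRNA and not with a single siRNA. That is 20%, 20% and 80% called lower, beside 6.28%, 25.1% and 49% of all genes. MCM10 was at 8.32, 8.17 and 8.3 in controls, 7.76, 7.83 and 7.75 with ETV6 siRNA, 7.56, 7.57 and 7.64 with NFKB1 siRNA, and 8.14, 8.25 and 7.99 with double siRNA. The single siRNA arrays lay below all control and all double siRNA arrays. Its falls were 1.4-fold (-0.48 ± 0.07, adjusted p = 0.00168) and 1.59-fold (-0.67 ± 0.07, adjusted p = 2.95e-05), beside -0.14 ± 0.07 with double siRNA (adjusted p = 0.0822). The double siRNA change of MCM10 was called lower in 4 alternative settings, among them the median shift and quantile normalization, and reached -0.25. GINS2, a subunit of the complex that joins CDC45 and MCM2-7, was at 10.16, 10.13 and 10.01 in controls and 9.21, 9.39 and 9.33 with double siRNA, and its single siRNA arrays lay between 9.88 and 10.15. The double siRNA arrays were below all others (-0.79 ± 0.07, adjusted p = 3.69e-06). CDC45, GINS3 and GINS1 changed by -0.45, -0.39 and -0.21 with double siRNA. They stood at -0.2, -0.12 and -0.19 with ETV6 siRNA and at 0.11, -0.05 and -0.13 with NFKB1 siRNA. GINS1 thus changed by much the same with ETV6 and double siRNA. Its limma p of 0.02 and 0.0116 became 0.121 and 0.0154 after adjustment. The double siRNA arrays of GINS1 overlapped the controls, and its call was lost without control replicate 1 or double replicate 3 (adjusted p of up to 0.0769). CDC45 with ETV6 siRNA (adjusted p = 0.0557) was called in 3 alternative settings.

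**Figure D2:**
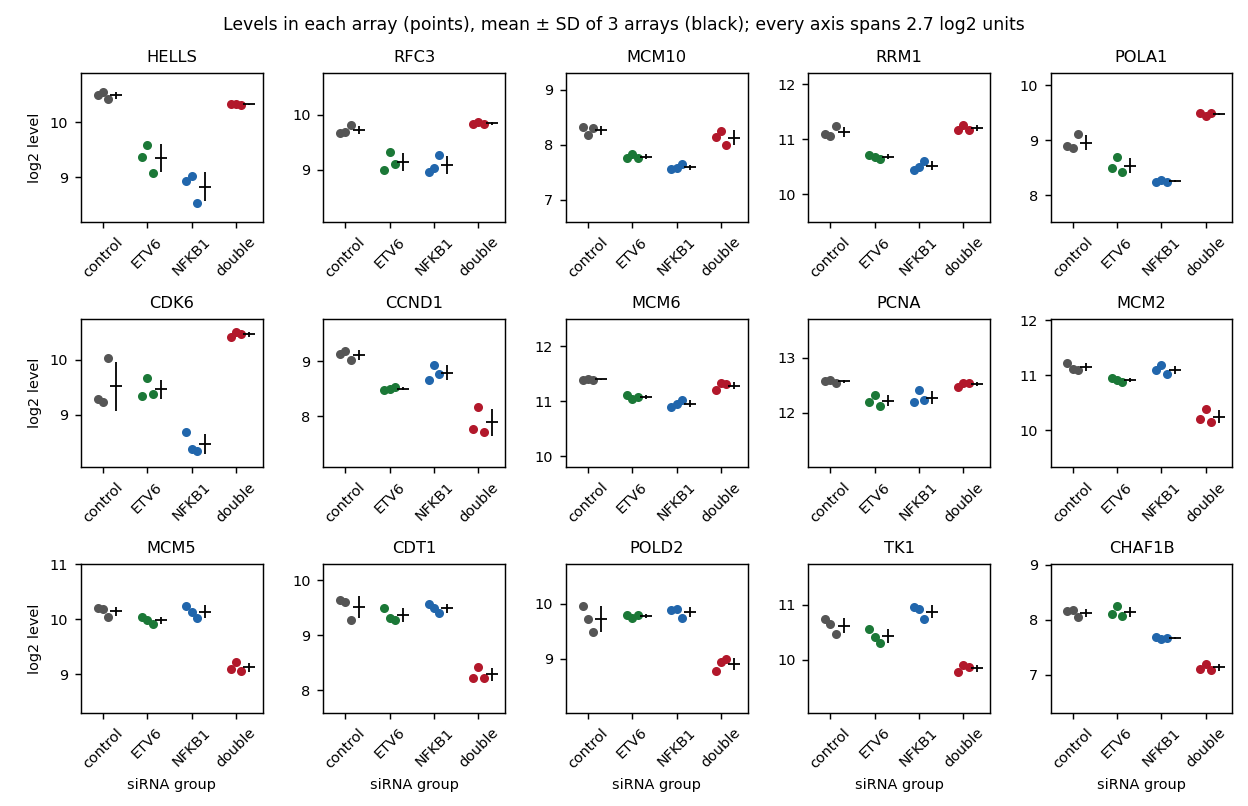
Log2 levels of 15 replication genes in each array (points, by siRNA group) with the mean ± SD of 3 arrays in black; every vertical axis spans the same range. HELLS, RFC3, MCM10, RRM1, MCM6 and PCNA, each on its brightest probe set, dip in both single siRNA groups and lie near control with double siRNA, POLA1 rises above it, and MCM2, MCM5, CDT1, POLD2 and TK1 are lowest with double siRNA.

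The sliding clamp, its loader and the single-strand binding protein RPA had 8 tested genes, of which 4 fell with ETV6 siRNA, 4 with NFKB1 siRNA and 5 with double siRNA, and none rose. All genes were called lower at 6.28%, 25.1% and 49%, and with double siRNA the 62.5% of this group that were called lie under the 80.9% of all genes called in either direction. PCNA, the clamp that holds the polymerases on DNA, was at 12.59, 12.6 and 12.55 in controls, 12.2, 12.33 and 12.13 with ETV6 siRNA, 12.2, 12.41 and 12.23 with NFKB1 siRNA, and 12.48, 12.55 and 12.55 with double siRNA. Every single siRNA array was below every double siRNA array, and the double siRNA arrays met the lowest control. PCNA fell by 1.28-fold with ETV6 siRNA (-0.36 ± 0.07, adjusted p = 0.00577) and 1.23-fold with NFKB1 siRNA (-0.3 ± 0.07, adjusted p = 0.00415), and stood at -0.06 ± 0.07 with double siRNA (adjusted p = 0.452).

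RFC3, a subunit of the clamp loader, had a wider swing. Its levels were 9.68, 9.69 and 9.81 in controls, 9, 9.32 and 9.11 with ETV6 siRNA, 8.97, 9.04 and 9.28 with NFKB1 siRNA, and 9.84, 9.88 and 9.83 with double siRNA. The groups did not overlap except the single siRNAs with each other. It fell 1.5-fold with ETV6 siRNA (-0.58 ± 0.09, adjusted p = 0.0027) and 1.55-fold with NFKB1 siRNA (-0.63 ± 0.09, adjusted p = 0.000288), and its 0.13 ± 0.09 with double siRNA was not called (adjusted p = 0.216). The loader subunits did not move together: RFC2 and RFC5 changed by -0.51 and -0.53 with double siRNA (adjusted p = 1.95e-05 and 1.32e-05; -0.32 for RFC5 with its probe sets averaged), and RFC4 fell in all 3 comparisons (-0.29, -0.4 and -0.22). RFC5 with ETV6 siRNA (-0.22, adjusted p = 0.04) was lost with its probe sets averaged (adjusted p = 0.286) and kept, with single arrays left out, only without control replicate 3, ETV6 replicate 1, NFKB1 replicate 3 or double replicate 2. Of the RPA subunits, RPA2 and RPA3 fell with double siRNA (-0.31 and -0.17) and RPA1 with NFKB1 siRNA (-0.14, adjusted p = 0.0218), the latter not without control replicate 2 or NFKB1 replicate 1.

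Among the polymerase and primase genes 8 of 9 were tested, and 4 fell with ETV6 siRNA, 4 with NFKB1 siRNA, and 4 with double siRNA, which also raised 1. Beside them 6.28%, 25.1% and 49% of all genes were called lower, so the 50% lower with double siRNA is at the background, and the 12.5% higher is under the 31.9% of all genes. Subunits of the same enzyme differed in the comparisons in which they were called. POLA1, the catalytic subunit of the polymerase that starts each new strand, was at 8.9, 8.86 and 9.11 in controls, 8.5, 8.69 and 8.42 with ETV6 siRNA, 8.24, 8.28 and 8.25 with NFKB1 siRNA, and 9.49, 9.45 and 9.49 with double siRNA. No knock-down array of POLA1 overlapped the controls: those of the single siRNAs were below and those of double siRNA above. It fell 1.34-fold (-0.42 ± 0.08, adjusted p = 0.00545) and 1.63-fold (-0.7 ± 0.08, adjusted p = 4.54e-05) and rose 1.43-fold with double siRNA (0.52 ± 0.08, adjusted p = 7.23e-05). POLA2, its regulatory subunit, stood at -0.21, 0.09 and -0.68, and of these double siRNA was called (adjusted p = 2.78e-05).

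In polymerase delta, which copies the lagging strand, the 2 accessory subunits differed in this way, and the catalytic POLD1 stood with POLD2. POLD2, an accessory subunit, was at 9.95, 9.73 and 9.48 in controls, 9.8, 9.74 and 9.79 with ETV6 siRNA, 9.88, 9.91 and 9.74 with NFKB1 siRNA, and 8.78, 8.94 and 9 with double siRNA. POLD3, another accessory subunit, was at 8.16, 8.21 and 8.27 in controls, 7.64, 7.78 and 7.71 with ETV6 siRNA, 7.75, 7.82 and 7.93 with NFKB1 siRNA, and 8.15, 8.21 and 8.19 with double siRNA. POLD2 was low in the double siRNA arrays, below all others, and POLD3 in the single siRNA arrays. POLD2 fell 1.76-fold with double siRNA (-0.81 ± 0.1, adjusted p = 2.37e-05), and POLD1, the catalytic subunit, 1.72-fold (-0.78 ± 0.09, adjusted p = 1.63e-05). POLD3 fell 1.42-fold with ETV6 siRNA (-0.51 ± 0.06, adjusted p = 0.000475) and 1.3-fold with NFKB1 siRNA (-0.38 ± 0.06, adjusted p = 0.000418). Likewise POLE, the catalytic subunit of the leading strand polymerase, fell with double siRNA (-0.56 ± 0.07, adjusted p = 3.15e-05), and its partner POLE2 with ETV6 siRNA (-0.4 ± 0.06, adjusted p = 0.00296) and NFKB1 siRNA (-0.2 ± 0.06, adjusted p = 0.0273). POLE2 with NFKB1 siRNA was lost without control replicate 3 or NFKB1 replicate 1, with a change of -0.13 without the latter. PRIM1, the catalytic primase subunit, fell with each single siRNA (-0.28 and -0.3), the first not without ETV6 replicate 1 or 3.

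Of the 4 genes of nucleotide supply, ETV6 siRNA lowered RRM1, RRM2 and TYMS, NFKB1 siRNA lowered RRM1 and TYMS and raised TK1, and double siRNA lowered TK1 and RRM2. This is 75%, 50% and 50% lower, beside 6.28%, 25.1% and 49% of all genes, so the share with double siRNA is at the background. RRM1, the large subunit of ribonucleotide reductase, was at 11.1, 11.06 and 11.24 in controls, 10.72, 10.68 and 10.63 with ETV6 siRNA, 10.44, 10.5 and 10.6 with NFKB1 siRNA, and 11.17, 11.26 and 11.16 with double siRNA. The 6 single siRNA arrays lay below all others, and the double siRNA arrays overlapped the controls. It fell 1.37-fold (-0.46 ± 0.06, adjusted p = 0.00116) and 1.54-fold (-0.62 ± 0.06, adjusted p = 2.31e-05), with 0.06 ± 0.06 for double siRNA (adjusted p = 0.373). On the mean of its 2 probe sets RRM1 was instead higher with double siRNA, by 0.66 (adjusted p = 3e-06). TK1, thymidine kinase of the salvage pathway, was at 10.74, 10.64 and 10.47 in controls, 10.56, 10.41 and 10.31 with ETV6 siRNA, 10.96, 10.92 and 10.74 with NFKB1 siRNA, and 9.78, 9.9 and 9.86 with double siRNA. Its double siRNA arrays lay below all others (-0.77 ± 0.09, adjusted p = 1.13e-05), and its NFKB1 call (0.25 ± 0.09, adjusted p = 0.0376) was lost without control replicate 2 or 3, NFKB1 replicate 1 or 2, or double replicate 3. TYMS, thymidylate synthase of the new synthesis pathway, changed by -0.26 ± 0.05 with ETV6 siRNA (adjusted p = 0.0081), and its call with NFKB1 siRNA (-0.16, adjusted p = 0.026) was lost without control replicate 1 or 3 or NFKB1 replicate 1 or 3. RRM2, the small subunit of the reductase, fell with ETV6 siRNA (-0.29 ± 0.04, adjusted p = 0.00125), and its -0.09 with double siRNA (adjusted p = 0.0472) was lost in 15 alternative settings, among them each array left out but NFKB1 replicate 3, and was 0 with the mean of its probe sets.

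FEN1, the flap nuclease, LIG1, the ligase that joins Okazaki fragments, and UNG, which removes uracil, fell by nearly the same amount with double siRNA, by 0.54, 0.55 and 0.52 on the log2 scale (adjusted p = 1.93e-05, 3.17e-05 and 6.81e-05), where 49% of all genes were called lower. None of the 3 was called with ETV6 siRNA (-0.11, -0.12 and 0.06), and FEN1 alone was called with NFKB1 siRNA (-0.19, adjusted p = 0.0405), a call kept, with single arrays left out, only without control replicate 3, ETV6 replicate 1 or 3, or double replicate 2 or 3. LIG1 was at 9.48, 9.47 and 9.38 in controls, between 9.19 and 9.6 in the single siRNA arrays, and at 8.85, 8.92 and 8.9 with double siRNA, so that the double siRNA arrays lay below all others.

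Of 6 genes of chromatin assembly, maintenance methylation and histone supply, ETV6 siRNA lowered HELLS alone, NFKB1 siRNA lowered HELLS, CHAF1B and UHRF1, and double siRNA lowered all but HELLS. That is 16.7%, 50% and 83.3% of the group, beside 6.28%, 25.1% and 49% of all genes called lower. HELLS, a chromatin remodeler needed for DNA methylation, was at 10.5, 10.54 and 10.42 in controls, 9.37, 9.59 and 9.08 with ETV6 siRNA, 8.94, 9.02 and 8.53 with NFKB1 siRNA, and 10.33, 10.33 and 10.31 with double siRNA. The double siRNA arrays lay just under the controls and well above every single siRNA array, and the NFKB1 siRNA arrays lay lowest. HELLS fell 2.2-fold with ETV6 siRNA (-1.14 ± 0.13, adjusted p = 0.00051) and 3.15-fold with NFKB1 siRNA (-1.65 ± 0.13, adjusted p = 6.65e-06), the deepest fall of any member in either comparison. With double siRNA it stood at -0.16 ± 0.13 (adjusted p = 0.268), which put it 1.97-fold above ETV6 siRNA (adjusted p = 3.23e-05) and 2.81-fold above NFKB1 siRNA (adjusted p = 8.84e-07).

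CHAF1B, a subunit of the factor that places histones on new DNA, had another order. It stood at 8.15, 8.18 and 8.04 in controls, 8.11, 8.24 and 8.06 with ETV6 siRNA, 7.69, 7.65 and 7.67 with NFKB1 siRNA, and 7.11, 7.2 and 7.09 with double siRNA. ETV6 siRNA overlapped the controls, NFKB1 siRNA lay below both, and double siRNA lay lowest without overlap. The falls were 1.37-fold with NFKB1 siRNA (-0.45 ± 0.06, adjusted p = 0.000159) and 1.98-fold with double siRNA (-0.99 ± 0.06, adjusted p = 9.7e-07). The double siRNA mean of CHAF1B, 7.13, lay under the limit set for testing, which it passed through its other groups. CHAF1A, the partner subunit, fell by 0.64 with double siRNA, UHRF1, which guides the maintenance methyltransferase, by 0.54, and DNMT1, that methyltransferase, by 0.35 (adjusted p = 2.82e-06, 1.32e-05 and 0.000548). UHRF1 with NFKB1 siRNA (-0.22, adjusted p = 0.0174) was lost without control replicate 2 or NFKB1 replicate 3. SLBP, the histone mRNA binding protein, was called with double siRNA (-0.13, adjusted p = 0.0178) but not without control replicate 2 or double replicate 1. Its change with ETV6 siRNA was much the same (-0.14) and was not called (adjusted p = 0.0834). The median change of all genes with double siRNA was also -0.13.

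**Figure D3:**
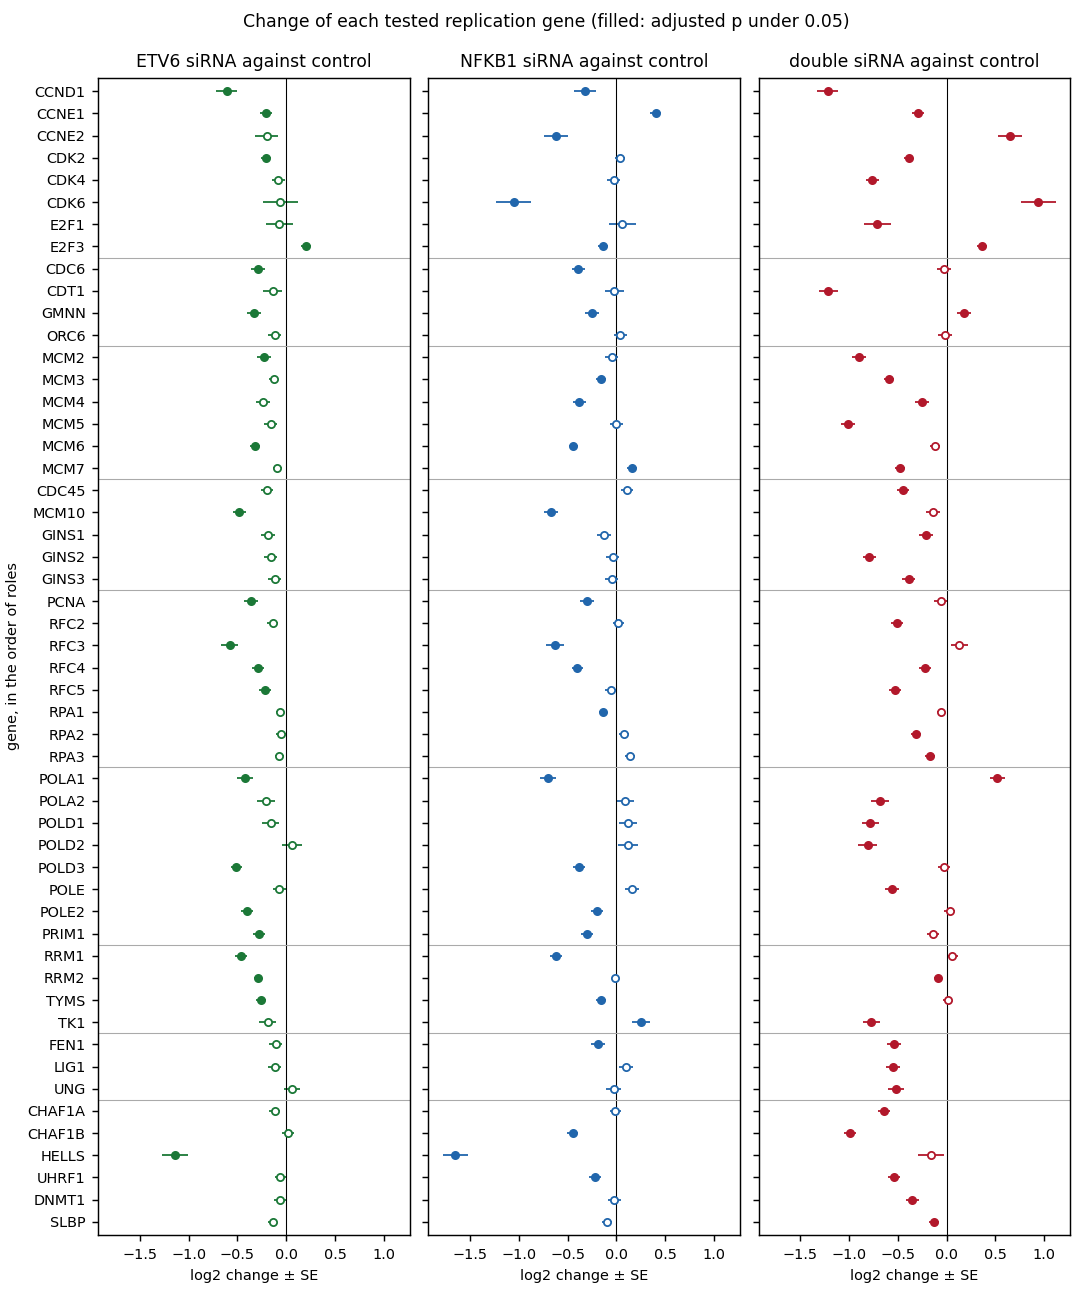
Log2 change from control with its SE for each of the 52 tested replication genes (rows, ordered by role, with lines between roles) in the 3 knock-downs; filled points are called at an adjusted p under 0.05. HELLS reaches -1.14 and -1.65 in the single siRNA panels, and CCND1 and CDT1 reach -1.22 and -1.21 in the double siRNA panel.

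The interaction was called for 46 members, 19 above 0 and 27 below, where 36.5% and 49.8% of all genes were called (86.3% in all), so a called interaction did not set the replication genes apart. Its median was -0.24, beside -0.18 over all genes. The highest values were those of HELLS (2.63 ± 0.19, SE), CDK6 (2.05), POLA1 (1.64) and CCNE2 (1.47), and the lowest those of CDT1 (-1.05), POLD2 (-0.99) and MCM5 (-0.85). For CCND1, ORC6, GINS1, GINS3, RPA1 and SLBP it was not called. Of these GINS3 (-0.22, adjusted p = 0.0502) was called in 10 of 20 alternative settings, CCND1 in 4 of 19, where it reached -0.5, RPA1 in 5 of 20 and SLBP in 1 of 20. CCND1 was among them without double replicate 2 (-0.43), and GINS3 without control replicate 1, ETV6 replicate 3, NFKB1 replicate 3 or double replicate 2. The 3 comparisons with control share the control arrays, and the interaction rests also on the double siRNA arrays, which stand apart. The target ETV6 itself had a called interaction of 0.81 (adjusted p = 0.000358), its knock-down being shallower with double siRNA than with ETV6 siRNA.

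Because a gene can be read by several probe sets, the 24 members with over 1 were checked with all of them. All probe sets of a gene gave the same sign in 19 genes with ETV6 siRNA, 17 with NFKB1 siRNA and 19 with double siRNA. The 4 probe sets of HELLS were all lower with ETV6 siRNA (-1.14 to -0.68) and NFKB1 siRNA (-1.65 to -0.97) and lay on both sides of control with double siRNA (-0.35 to 0.21). MCM10 gave -0.55 to -0.42, -0.92 to -0.67 and -0.14 to -0.08 on 3 probe sets, and CDK6 gave -1.14 to -0.16 with NFKB1 siRNA and 0.02 to 1.2 with double siRNA on 5. Signs differed in the ETV6 comparison in RRM1, CDK2, CDK6, RFC5 and RPA1, with NFKB1 siRNA in CDT1, MCM5, GINS3, RFC5, POLD3, RRM1 and CHAF1A, and with double siRNA in CDK2, CDC6, RPA1, RRM2 and HELLS. The disagreements that touch calls were those of RRM1, POLD3, RRM2, CDK2, RFC5, E2F3 and RPA1. Of CDK2 the dimmer probe set stood at 0.08 with double siRNA against -0.39, and of RFC5 the second of 3, with a mean of 9.3, stood at -0.06 against -0.53. The dimmer RRM1 probe set, with a mean of 7.35 against 10.88, stood at 0.13, 0.01 and 1.26 in the ETV6, NFKB1 and double comparisons. The dimmer POLD3 probe set, with a mean under the limit for testing, stood at -0.04, 0.22 and -0.1. Both RRM2 probe sets were bright (12.61 and 12.35), and the second stood at -0.41, -0.42 and 0.1, so that its NFKB1 value differs from the -0.01 of the first. With the probe sets of each gene averaged RRM1 was not called with ETV6 siRNA (-0.17, adjusted p = 0.125) and rose with double siRNA (0.66, adjusted p = 3e-06). POLD3 was then not called with NFKB1 siRNA (-0.08, adjusted p = 0.32), and RRM2 fell with NFKB1 siRNA (-0.21, adjusted p = 0.00286). Averaging also ended the calls of CDK2 and RFC5 with ETV6 siRNA, of E2F3 and RPA1 with NFKB1 siRNA, and of CDK2 and RRM2 with double siRNA.

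**Figure D4:**
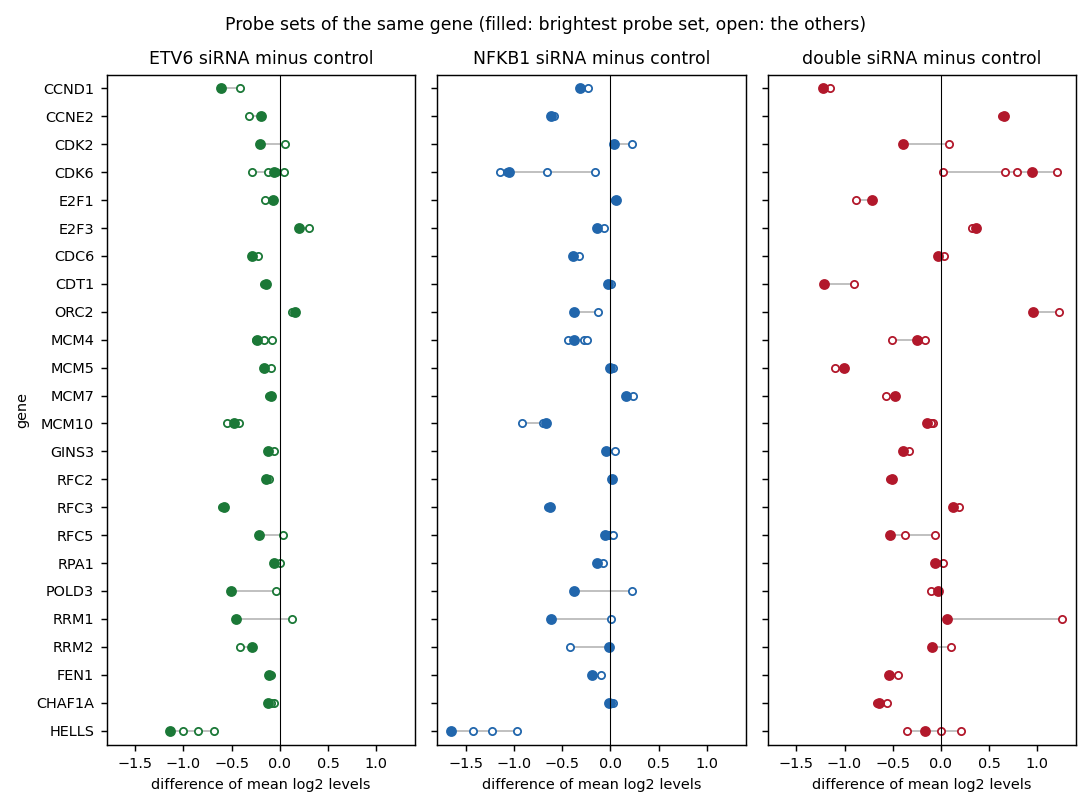
Difference of mean log2 levels from control for each probe set of the 24 replication genes with over 1 probe set; filled points are the brightest probe set and open points the others. The points of a gene lie close together in most rows, and RRM1 (0.06 and 1.26 with double siRNA) and CDK6 (0.02 to 1.2) are the widest.

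Genes with and without the E2F letters in their promoter window, such as those printed above, were set side by side over the 44 tested genes with a window. The median change was -0.17 with the letters and -0.15 without in ETV6 siRNA, -0.14 and -0.04 in NFKB1 siRNA, and -0.37 in both sets with double siRNA, over 22 genes each. With double siRNA 13 of the 22 genes with the letters fell and 2 rose, and 15 of the 22 without fell and 2 rose, where 49% of all tested genes were called lower and 31.9% higher. The letters thus stood in genes of either direction, among them POLA1 and E2F3, which rose, and CDT1 and GINS2, which fell.

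The length of the genes was also set against their changes, as a description over genes that share the same arrays. Across the 52 members Spearman's rho between the gene's span on GRCh38.p14 and its change was -0.09 with ETV6 siRNA, -0.26 with NFKB1 siRNA and 0.34 with double siRNA. Over 7759 genes it was -0.08, -0.37 and 0.37, so the members followed all genes in this. With double siRNA the median change was -0.54 in the 13 shortest members (4.33 to 13.1 kb), -0.25 and -0.53 in the 13 next longer and the 13 after those, and -0.09 in the 13 longest (54.9 to 303 kb). CDK6 (232 kb) and POLA1 (303 kb), both higher with double siRNA, are the longest, while CCNE2 (16.5 kb) rose and is short, and HELLS spans 68.1 kb. CDT1 (5.47 kb) and CCND1 (13.3 kb), the lowest with double siRNA, are among the short ones. The next lowest were longer: MCM5 (-1.01, 54.9 kb), CHAF1B (-0.99, 33.6 kb) and MCM2 (-0.9, 24 kb). The part of gene length in the changes was not tested.

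**Figure D5:**
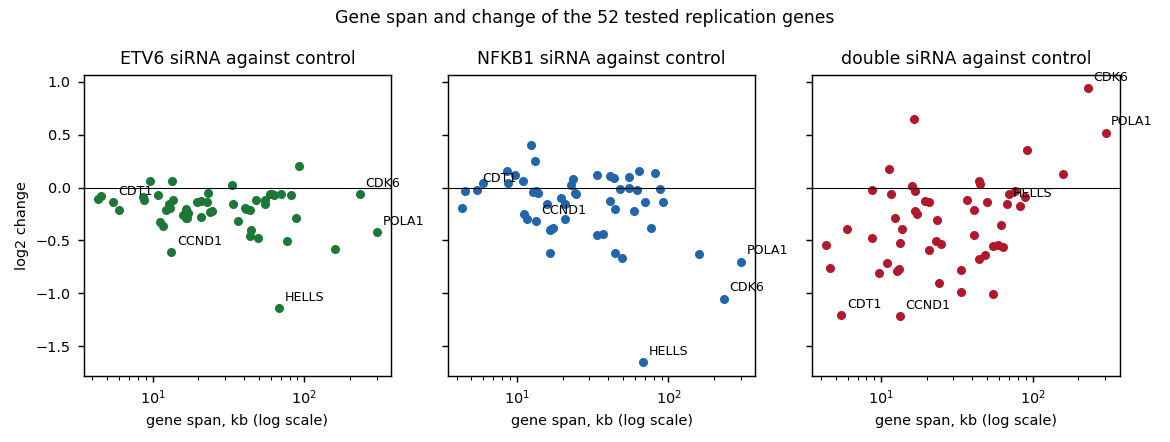
Log2 change from control (vertical) against the gene's span in kb (horizontal, log scale) for the 52 tested replication genes, 1 panel per knock-down. With double siRNA the longest genes, CDK6 and POLA1, lie highest on the right and CDT1 and CCND1 lowest on the left; with NFKB1 siRNA CDK6 and POLA1 lie low.

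A second list held 58 other genes of the same pathway: further E2F, retinoblastoma and cyclin genes, CDK inhibitors, origin firing factors, fork proteins and nucleotide enzymes. Of these 52 were measured and 44 tested. ETV6 siRNA lowered 6 and raised 1, NFKB1 siRNA lowered 13 and raised 4, and double siRNA lowered 17 and raised 21. The shares lower were 13.6%, 29.5% and 38.6%, beside 6.28%, 25.1% and 49% of all genes, and the shares higher with the single siRNAs were 2.27% and 9.09%, beside 4.38% and 15.5%. Their median changes were -0.1, -0.05 and 0, and the 47.7% called higher with double siRNA compares with 31.9% of all genes and 9.62% of the members. With ETV6 siRNA the strongest calls were FBXO5 (-0.47), an inhibitor of the anaphase-promoting complex, TIPIN (-0.32), a fork protection protein, E2F8 (-0.38), a repressor E2F, CCNA2 (-0.32), cyclin A2, DSCC1 (-0.52), which helps load PCNA, and DUT (-0.21), which removes dUTP. With NFKB1 siRNA they were E2F8 (-0.9), E2F7 (-0.59), also a repressor E2F, TIPIN (-0.42), FBXO5 (-0.59), TOPBP1 (-0.98), needed for origin firing, and TOP1 (-0.42), topoisomerase I. With double siRNA they were RBL2 (0.95), a relative of the retinoblastoma protein, CCNA2 (0.81), POLE4 (-0.5), a small subunit of polymerase epsilon, CCND3 (-0.74), cyclin D3, RNASEH2A (-0.73), which clears RNA from DNA, and E2F5 (0.62), a repressor E2F.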

How the data were processed

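U251 RNA was hybridized to 12 Affymetrix arrays, 3 for each of 4 siRNA groups, grouped by the sample titles. The file holds the authors' deposited log2 level of each probe set; background correction, normalization and the choice of the 19520 probe sets are not given in the sources used here. Of the probe sets 17313 name 1 gene in the platform's table, 857 several, 1293 none and 57 are controls. The brightest single-gene probe set was used per gene (10346 genes), and a gene was tested if its mean over all arrays reached the 25th percentile (log2 7.54), with ETV6 and NFKB1 kept at any level, 7760 in all. Entrez identifiers of 10340 genes matched RefSeq (GRCh38.p14). 

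One limma 3.58.1 model (R 4.3.3, lmFit and eBayes) with a mean per group gave 7 two-sided comparisons, the interaction being double minus ETV6 minus NFKB1 plus control. Benjamini-Hochberg adjustment ran over all tested genes, with calls under 0.05. With 3 arrays a group the smallest p of an exact permutation test is 0.1, so none was used. Every member may be named, with those of smallest adjusted p in each role described in full, and at most 6 genes of the second list per comparison. The members, lists, rules and alternatives were chosen with earlier results of these data known, and so support nothing by themselves. Tested on simulated data (7760 genes, 100 of them changed at each fold), the model recovered 92% of 1.5-fold and 98% of 2-fold changes for ETV6 siRNA, 92% and 100% for NFKB1 siRNA, and 87% and 98% for double siRNA, with 3.55%, 6.34% and 5.13% false among calls. The simulated noise was independent, with 1 mean and 1 spread per gene for all arrays. In the data 10.7%, 40.6% and 80.9% of genes were called with ETV6, NFKB1 and double siRNA, far more than were changed in the simulation. These rates therefore hold for the simulated setting and do not carry over to the data. Their differences among the 3 comparisons come from the random draw. The number of arrays limits the precision. No 2 arrays held identical values. Alternatives were other scaling, filters, probe set averages, array weights, trended robust variances, a replicate block, fitting just the groups being compared, and dropping each array in turn. Promoter letters were counted in RefSeq windows; protein sequences were not used here.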

Additional observations from a re-analysis of the deposited data

Results flagged for a closer look

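For 46 replication genes the effect of ETV6 siRNA differed with and without NFKB1 siRNA, by the interaction term of limma (adjusted p from 1.1e-06 to 0.0291). The depth of the ETV6 knock-down differed too: ETV6 stood at 22.6% of control with ETV6 siRNA and 35.1% with double siRNA. Its own interaction was 0.81 (adjusted p = 0.000358), and the part of this in the other terms was not tested. The values are log2 units, and 86.3% of all tested genes were called in this term, in which the double siRNA arrays, which stand apart in spike-ins and the ACTB 3' to 5' difference, take part. In the positive direction, where double siRNA lies above the sum of the single changes, the G1 genes were CDK6 2.05, CCNE2 1.47 and E2F3 0.3. Licensing and helicase genes were MCM10 1.01, GMNN 0.76, CDC6 0.65, MCM6 0.64 and MCM4 0.37. Those of the clamp and polymerases were POLA1 1.64, RFC3 1.34, POLD3 0.85, POLE2 0.63, PCNA 0.61, RFC4 0.47 and PRIM1 0.43, and the remaining positive ones were HELLS 2.63, RRM1 1.14, TYMS 0.42 and RRM2 0.21.

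In the negative direction the G1 genes were E2F1 -0.7, CDK4 -0.64, CCNE1 -0.48 and CDK2 -0.21. Licensing and helicase genes were CDT1 -1.05, MCM5 -0.85, MCM2 -0.62, GINS2 -0.59, MCM7 -0.54, CDC45 -0.35 and MCM3 -0.31. Those of the clamp, RPA and polymerases were POLD2 -0.99, POLD1 -0.74, POLE -0.64, POLA2 -0.56, RFC2 -0.39, RPA2 -0.33, RFC5 -0.25 and RPA3 -0.23. The others were TK1 -0.83, UNG -0.54, LIG1 -0.54, FEN1 -0.24, CHAF1B -0.55, CHAF1A -0.51, DNMT1 -0.28 and UHRF1 -0.26. Of the 46, 39 were called in every alternative in which they were tested. The calls of E2F3, MCM4, PRIM1 and RRM2 were lost after shifting arrays to a common median, those of CDK2 and RFC5 after averaging the probe sets of each gene, and that of FEN1 without control replicate 3, ETV6 replicate 1, NFKB1 replicate 1 or 2, or double replicate 3; RFC5 was also lost without double replicate 1.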

How the results depend on the processing

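The 3 arrays per group limit what can be seen, the labels give no culture for an array, and the double siRNA arrays differ from all others in spike-ins and medians. Some members called in the main setting were called in every alternative in which they were tested. These were 10 of 21 with ETV6 siRNA, 15 of 27 with NFKB1 siRNA and 34 of 39 with double siRNA. Of the members not called in the main setting, 18, 8 and 8 were called in some alternative. Of the called members in these 3 comparisons and the interaction, 1 turned its sign, RRM2 with double siRNA. With the mean of its probe sets RRM2 stood at a value that rounds to 0 (adjusted p = 0.942).

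Counts of members called higher and lower that moved by over 1.5 times were as follows, with the share of all tested genes in brackets. After shifting arrays to a common median, 0 were higher with ETV6 siRNA (4.27%). With NFKB1 siRNA 8 were then higher (31.3%) and 15 lower (19%). The same shift gave 10 higher for double against NFKB1 siRNA (30.8%) and 23 lower for ETV6 against NFKB1 siRNA (26.7%). Quantile normalization gave 6 higher with NFKB1 siRNA (28.2%) and 21 lower for ETV6 against NFKB1 siRNA (22.4%). Fitting only the groups compared gave 0 higher (0.851%) and 12 lower (1.56%) with ETV6 siRNA and 1 higher with NFKB1 siRNA (7.15%). Array weights gave 38 lower with ETV6 siRNA (16%) and 7 higher with NFKB1 siRNA (30%). They gave 12 higher (28.1%) and 22 lower (27.7%) for ETV6 against NFKB1 siRNA. The cause of these moves was not tested.

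Leaving out each array in turn gave 0 to 1 higher and 14 to 23 lower with ETV6 siRNA, 1 to 6 and 16 to 23 with NFKB1 siRNA, 4 to 5 and 32 to 36 with double siRNA, 15 to 17 and 27 to 27 for double against ETV6, 15 to 17 and 29 to 30 for double against NFKB1, 3 to 9 and 7 to 17 for ETV6 against NFKB1, and 19 to 20 and 26 to 29 for the interaction. Deviations of same-numbered arrays correlated from -0.52 to 0.48, and 5 of 18 pairs were over 0.1. Differently numbered arrays were not set beside them, so this cannot show whether the replicate numbers pair the arrays. Replicate 3 had the lowest poly-A spike-in mean of each group, at 8.53 (control), 8.37 (ETV6), 8.51 (NFKB1) and 7.97 (double siRNA). With the replicate block 1 was higher and 21 lower with ETV6 siRNA, and 3 and 23 with NFKB1 siRNA. It gave 5 and 33 with double siRNA, and 19 and 28 for the interaction. The shares of all genes called with an array left out or with the block are not given here.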

Other observations

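Some genes of the second list, named here after their values were seen, had wide changes with double siRNA. Those described here rose, while of the 44 tested 21 were called higher and 17 lower, beside 31.9% and 49% of all genes. ASF1B was among those that went down, from a mean of 9.45 in controls to 8.6 with double siRNA. DBF4, which activates the kinase CDC7 at origins, was at 8.35, 8.21 and 9.09 in controls, 8.4, 8.66 and 8.16 with ETV6 siRNA, 8.23, 8.41 and 8.2 with NFKB1 siRNA, and 10.21, 10.18 and 10.32 with double siRNA (3.22-fold, adjusted p = 1.23e-05 in limma). RRM2B, a small subunit of ribonucleotide reductase that p53 controls, was at 7.5, 7.39 and 8.42 in controls and 9.43, 9.44 and 9.46 with double siRNA (3.19-fold, adjusted p = 2.39e-05). In both genes the double siRNA arrays lay above all others, and control replicate 3 lay above the other controls. RB1, the retinoblastoma protein, rose 2.03-fold and DCK, deoxycytidine kinase, 2.13-fold (adjusted p = 2.09e-05 and 2.33e-05). ORC4 and ORC5, subunits of the origin recognition complex, each rose 1.54-fold (adjusted p = 8.33e-05 and 2.22e-05), beside ORC6, which was not called. ORC3 had a mean of 9.02 in controls and 9.28 with double siRNA. Of the subunits too dim to test, ORC1 went from 7.3 to 6.73 and ORC2 from 7.29 to 8.25.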
